A study of Mus musculus with 2 samples.

Results

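The contractile machinery was read through 10 genes in single cells of the mouse lacrimal gland. They were Acta2, Actg2, Myh11, Cnn1, Tagln, Mylk, Myl9, Tpm1, Tpm2 and Oxtr, 10 of 27775 genes in the files. The 2 groups were glands of untreated wild-type mice of the outbred CD1 strain, taken on embryonic day 16 (E16) or on postnatal day 4 (P4). Glands were pooled and dissociated with Liberase and DNase, and each stage was 1 library. Of 437 barcodes in E16 and 687 in P4, those with at least 200 detected genes were used, which left 259 and 406 cells. Levels were read in 3 kinds of cell. Cells with at least 2 UMIs (unique molecular identifiers, each marking a captured transcript) of Krt14 and Krt5 together numbered 44 in E16 and 24 in P4 and are called Krt14/Krt5 cells. Cells with at least 3 UMIs of Rgs5, Cox4i2 and Notch3 together numbered 15 and 8 and are called Rgs5/Cox4i2/Notch3 cells. The other cells numbered 200 and 373, and 1 P4 cell that met both rules was kept apart.

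Contraction of smooth muscle begins when calcium signalling activates myosin light chain kinase (Mylk), which phosphorylates the regulatory light chain (Myl9) of smooth muscle myosin (heavy chain Myh11) so that it pulls on actin filaments. Those filaments are built from Acta2 and Actg2 and carry tropomyosin (Tpm1, Tpm2), calponin (Cnn1) and transgelin (Tagln). Mural cells (pericytes and vascular smooth muscle) use this machinery around vessels, and myoepithelial cells, which are epithelial, use it around the secretory units of glands to squeeze out their fluid. Oxtr is the receptor for oxytocin, a hormone that makes myoepithelial cells of the mammary gland contract.

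Many smooth muscle genes carry CArG boxes, the sites bound by serum response factor (SRF). The box was searched on both strands in the 250 bases before each gene's start, strictly and with 1 G or C allowed among its 6 inner A or T bases. RefSeq promoter sequences (GRCm38.p6) were matched for 7 of the 10 genes. They were not matched for Actg2, Myh11 and Tagln. A strict box was found for Myl9, among 482 of 32851 promoters (1.47%), and a box of either kind for Acta2 and Myl9, among 2823 promoters (8.59%). Windows of 10 bases on either side are shown because these are the sites found in the sequences searched, with the box in capitals. Distances are counted from the RefSeq start, which for Acta2 lies inside the GENCODE gene model given further on, so that both Acta2 windows fall within that model.
Acta2 box 84 bases upstream, chr19:34255438-34255467, minus strand: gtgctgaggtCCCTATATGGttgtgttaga
Acta2 box 34 bases upstream, chr19:34255388-34255417, minus strand: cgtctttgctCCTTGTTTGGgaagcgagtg
Myl9 strict box 161 bases upstream, chr2:156775293-156775322, plus strand: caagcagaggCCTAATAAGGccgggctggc
Myl9 box 99 bases upstream, chr2:156775355-156775384, plus strand: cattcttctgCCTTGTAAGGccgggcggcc
These matches are a description of letters in a window. Cnn1, Mylk, Tpm1, Tpm2 and Oxtr had no match there. The 2 genes with a box, Acta2 and Myl9, both had a UMI in most Krt14/Krt5 cells of either stage. So did Tpm1 and Tpm2, which had no box in this window.

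The Krt14/Krt5 cells held 453738 UMIs in E16 and 232799 in P4, with medians of 9442 and 8073 per cell. The Rgs5/Cox4i2/Notch3 cells held 94330 and 37715, with medians of 5005 and 3781.5. No cell barcode was shared between the libraries. Levels are summed UMIs per 1000000 UMIs of the cells concerned (CPM), and ratios carry exact conditional 95% intervals that cover counting error only. Each stage was 1 library, so no test across samples could be made. A gene was called by size alone, at 2-fold or more, among genes with at least 10 UMIs over both sides. Levels were not compared between genes.

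The 2 kinds of cell were then read for markers. The lists included the genes of the rules, Krt14 and Krt5 among the basal markers and Rgs5, Cox4i2 and Notch3 among the mural ones. Detection of those genes in their own cells was favoured by the rules, which also limited them in the other kind, so it is no independent check. Among Krt14/Krt5 cells, 42 of 44 in E16 and 21 of 24 in P4 had a UMI of the epithelial genes Epcam, Cdh1, Krt8 or Krt18. Epcam was found in 41 and 17. All 12 myoepithelial and basal markers were detected in E16 and 10 of 12 in P4, where Lamb3 and Cxcl14 were at 0. Of 14 mural markers, 9 were detected in these cells in E16 (83.7 CPM summed) and 5 in P4 (47.3 CPM), while Cox4i2, Kcnj8, Abcc9 and Higd1b were at 0 in both stages. Among Rgs5/Cox4i2/Notch3 cells, 13 of 14 mural markers were detected at both stages and Cspg4 was at 0, as were Krt5 and Trp63. Pdgfrb was found in 5 cells of each stage. The fibroblast list summed to 4664 CPM in these cells in E16 (672 to 14442 per cell) and to 12303 CPM in P4 (1061 to 23431 per cell), against 207 and 619 CPM in Krt14/Krt5 cells. The endothelial list summed to 742 and 1538 CPM in them, against 48.5 and 21.5 CPM in Krt14/Krt5 cells. Red cell genes summed to 17948 CPM in E16 (559 to 93792 per cell) and 2121 CPM in P4. These lists move with the comparisons that use Rgs5/Cox4i2/Notch3 cells, and their part in the results was not tested.

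Krt14/Krt5 cells held more contractile transcript in P4 than in E16. The 10 genes together had 2896 CPM before birth and 5507 CPM after it, a ratio of 1.90 (1.76 to 2.06). Of the 9 genes that could be compared, 6 had a P4 level 2-fold or more above E16 and 0 the reverse, where 8.86% of 6712 genes were at least 2-fold higher and 29.2% lower. Their median log2 ratio was 1.17, against -0.44 for all genes. Other epithelial genes differed between the same cells. A list of 10 epithelial genes summed to 2482 CPM before birth and 5979 CPM after it. The luminal keratin Krt18 stood at 549 and 2844 CPM. The myoepithelial and basal list stood at 1307 and 1216 CPM. Of that sum Krt14, which helped to choose these cells, made up 630 and 657 CPM. The part of these markers in the contractile ratios was not tested. Cnn1, Myh11, Mylk and Actg2 stood furthest from E16. Acta2 and Tagln were a little over 2-fold higher. Myl9, Tpm2 and Tpm1 were within 2-fold.

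**Figure D1:**
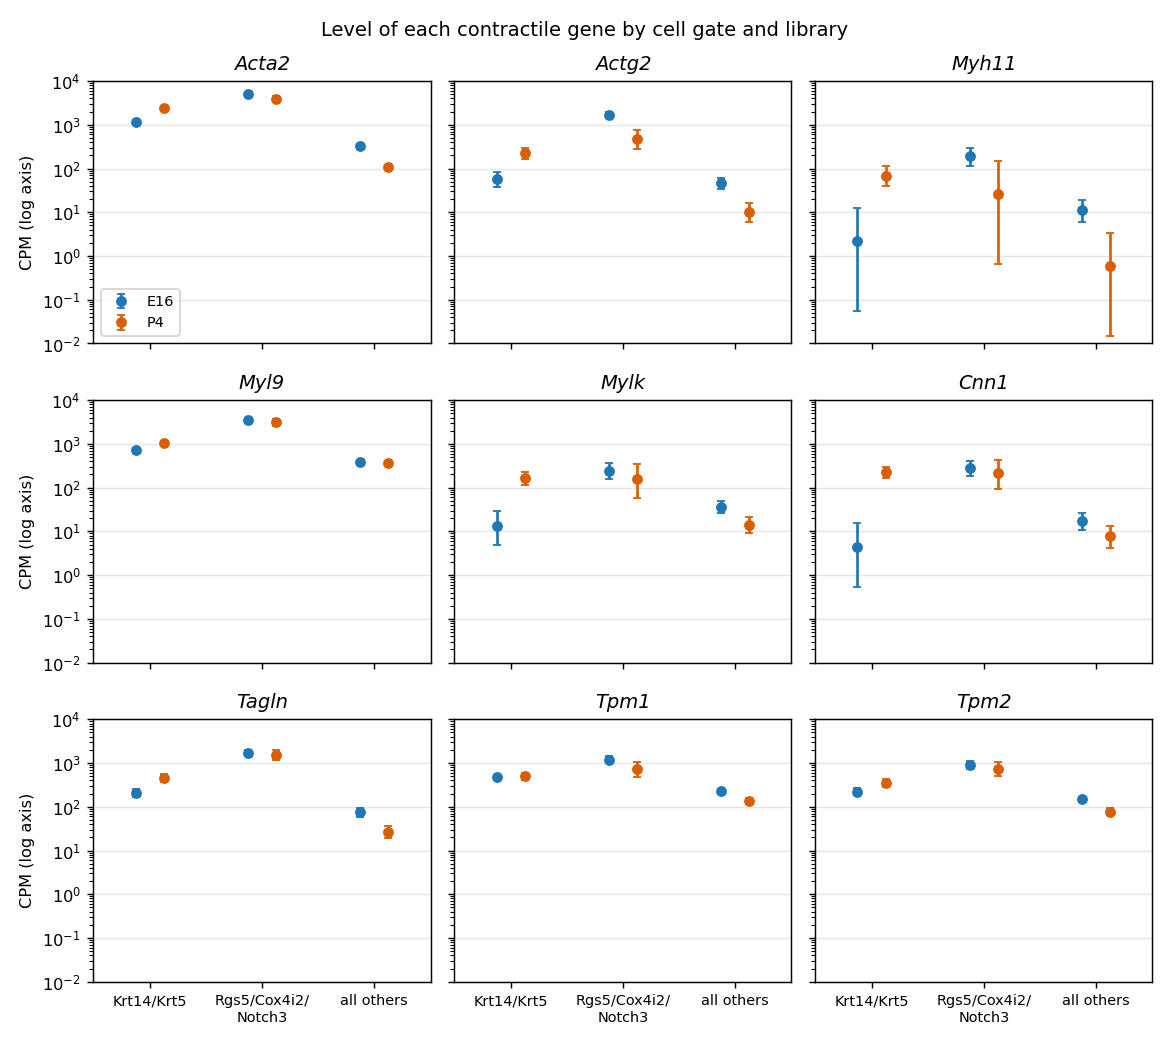
Level of 9 contractile genes (CPM, log axis) in Krt14/Krt5 cells, Rgs5/Cox4i2/Notch3 cells and all other cells of the E16 (blue) and P4 (orange) libraries; bars are exact Poisson 95% intervals for counting error only. In Krt14/Krt5 cells Cnn1 lies at 4.41 CPM before birth and 228 CPM after it, while Tpm1 lies at 478 and 503 CPM.

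The actins were read first. Acta2 (chromosome 19, 34241090 to 34255590, minus strand, mm10) encodes smooth muscle alpha-actin. In E16 its 44 cells held 0 to 62 UMIs with a median of 7, and in P4 the 24 cells held 0 to 69 with a median of 17.5. The summed level went from 1184 to 2474 CPM, a ratio of 2.09 (1.86 to 2.36). The ranges of the cells overlapped almost fully, and the gene was already present in E16, where 38 of 44 cells (86.4%, exact Clopper-Pearson interval 72.6 to 94.8%) had a UMI, against 22 of 24 (91.7%, 73.0 to 99.0%) in P4. With all cells weighted equally the ratio was 4.62, and it was 1.52 with at least 5 keratin UMIs required.

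Actg2 (chromosome 6, 83512905 to 83536265, minus strand) encodes smooth muscle gamma-actin. It had 26 UMIs in E16, with at most 6 in a cell, and 52 in P4, with at most 9. The level was 57.3 CPM, then 223 CPM, a ratio of 3.90 (2.39 to 6.50). A UMI was found in 15 of 44 cells (34.1%) and in 16 of 24 (66.7%). In E16 all 15 of those cells also had Acta2, and in P4 15 of 16 did. Acta2, Actg2 and the other actin genes have similar coding sequences, so some of their reads may be hard to assign. The sources used here do not give how the counting treated such reads.

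Myosin and its control came next. Myh11 (chromosome 16, 14194535 to 14291372, minus strand), the smooth muscle myosin heavy chain, had 1 UMI over the 44 E16 cells and 16 UMIs over the 24 P4 cells. The level went from 2.20 to 68.7 CPM, a ratio of 31.2 whose interval of 4.84 to 1308 shows how little the single E16 UMI fixes it. In P4 the UMIs were spread over 11 cells, none with more than 3. Mylk (chromosome 16, 34745210 to 35002420, plus strand), the kinase that switches the myosin on, had 6 UMIs in 5 E16 cells and 38 UMIs in 12 P4 cells. Its level was 13.2 CPM against 163 CPM, a ratio of 12.3 (5.18 to 35.7). Myl9 (chromosome 2, 156775420 to 156781658, plus strand), the light chain that Mylk acts on, was in nearly every cell at both stages, 42 of 44 and 23 of 24. Its 729 CPM in E16 became 1040 CPM, a ratio of 1.42 (1.20 to 1.69).

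The thin filament proteins differed among themselves. Cnn1 (chromosome 9, 22099216 to 22109630, plus strand), calponin, restrains actomyosin and is used as a marker of mature smooth muscle. It had 2 UMIs in 2 of 44 E16 cells and 53 UMIs in 14 of 24 P4 cells, with at most 11 in a cell. The level was 4.41 CPM against 228 CPM, a ratio of 51.6 (13.6 to 438). Tagln (chromosome 9, 45929619 to 45936058, minus strand), transgelin, an actin-binding protein, was found in 22 cells in E16 and 20 in P4. The 2 levels were 205 and 460 CPM, a ratio of 2.24 (1.68 to 2.99). Tagln lies across Pcsk7 on the opposite strand, and Pcsk7 had 3 and 1 UMIs in these cells.

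Both tropomyosins were within 2-fold. Tpm1 (chromosome 9, 67022590 to 67049406, minus strand) had 217 UMIs in E16 and 117 in P4. The levels were 478 and 503 CPM, and the interval of their ratio (1.05, 0.832 to 1.32) held 1. Of the P4 UMIs, 41.0% came from a single cell with 48 Tpm1 UMIs, 35 of Krt14, 140 of the luminal keratin Krt18 and none of Acta2. Tpm2 (chromosome 4, 43514711 to 43523765, minus strand) had 101 and 81 UMIs, or 223 and 348 CPM, a ratio of 1.56 (1.15 to 2.11). Both tropomyosin genes are also made in many non-muscle cells through other splice forms, which summed counts per gene cannot separate.

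Oxtr (chromosome 6, 112473683 to 112489943, minus strand) had 0 UMIs in every cell kept and in the barcodes below 200 genes. In Krt14/Krt5 cells the upper limit of the exact interval was 8.13 CPM for E16, and for P4 it was 15.8 CPM. A count of 0, taken as up to 3 cells, allows a UMI in up to 6.82% of the 44 E16 cells and 12.5% of the 24 P4 cells, which limits cells with a UMI and not cells expressing the gene.

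**Figure D2:**
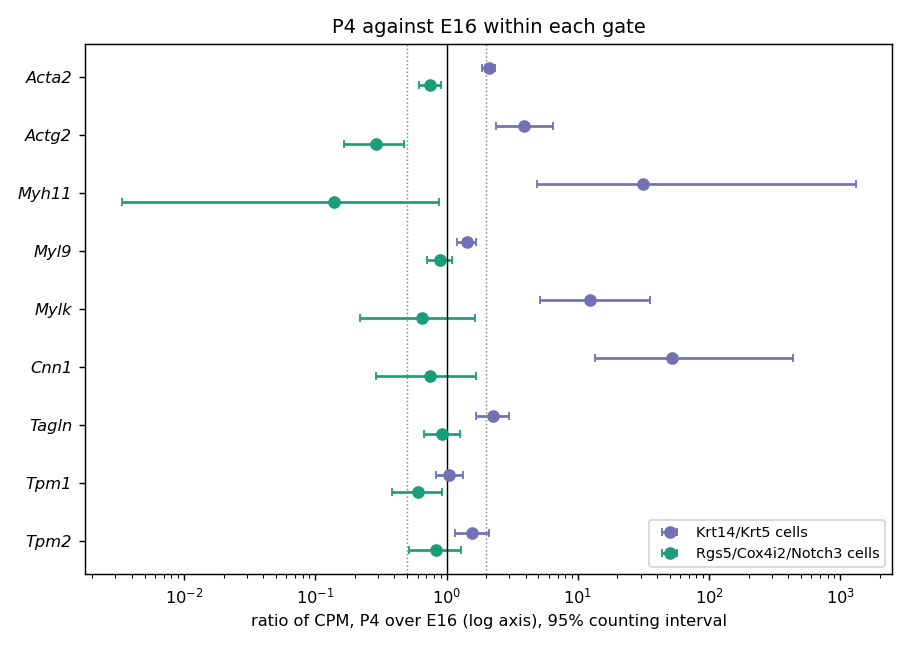
Ratio of CPM, P4 over E16 (log axis), of 9 contractile genes in Krt14/Krt5 cells (purple) and in Rgs5/Cox4i2/Notch3 cells (green), with exact 95% counting intervals; dotted lines mark 2-fold. In Krt14/Krt5 cells all 9 points lie above 1, from 1.05 for Tpm1 to 51.6 for Cnn1, and in Rgs5/Cox4i2/Notch3 cells all 9 lie below 1, from 0.139 for Myh11 to 0.924 for Tagln.

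These genes were found together in single cells. The median number of the 10 genes with a UMI in a Krt14/Krt5 cell was 4.5 in E16, with a maximum of 7. It was 7 in P4, with a maximum of 9. At least 5 genes were found in 22 of 44 E16 cells (exact interval 34.6 to 65.4%) and in 19 of 24 P4 cells (79.2%, 57.8 to 92.9%). At least 8 were found in 0 of 44 and in 9 of 24. The most complete cells in P4, 6 of them, had all of the genes but Oxtr.

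A grouping made after the values were seen sets Actg2, Myh11, Cnn1 and Mylk against the rest. At least 1 of these 4 was found in 17 of 44 E16 cells (38.6%, 24.4 to 54.5%) and in 21 of 24 P4 cells (87.5%, 67.6 to 97.3%). At least 2 were found in 6 and 15 cells, and all 4 in 0 and 7 cells. In P4, 12 of the 14 Cnn1 cells also had Actg2, 10 had Mylk and 9 had Myh11. In E16, 4 of the 5 Mylk cells had Actg2, and neither Cnn1 cell had Mylk or Myh11. At least 1 of the other 5 detected genes (Acta2, Myl9, Tpm1, Tpm2 and Tagln) was found in all 44 and all 24 cells.

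The P4 cells had the lower median depth and the higher shares. When cells were thinned to 1466 UMIs, with 4 of 44 E16 and 7 of 24 P4 cells below that depth left out, the expected share with at least 1 of the 4 genes was 9.96% in E16 and 57.5% in P4. The thinned share for Cnn1 was 0.840% against 30.7%, for Myh11 0.706% against 14.0%, and for Actg2 7.23% against 27.1%. For Acta2 it was 64.6% against 75.0%.

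Free RNA was gauged in cells that should lack these genes. Cells in which haemoglobin made up at least 50% of UMIs numbered 25 in E16 (median 6700 UMIs) and 12 in P4 (median 5439). These medians count haemoglobin, so fewer UMIs were left in which a contractile gene could show. A count of 0 there sets only a loose limit on free RNA. In barcodes below 200 genes the contractile genes stood at 1103 (E16) and 1377 CPM (P4) of UMIs other than haemoglobin. In the 25 and 12 haemoglobin-rich cells, Acta2, Actg2, Myh11, Cnn1 and Mylk were at 0. Tagln was in 1 and 2 of those cells, Myl9 in 2 and 1, Tpm1 in 6 and 2, and Tpm2 in 1 and 1. The barcodes below 200 genes did hold Acta2, with 9 UMIs in 8 of 178 in E16. Cells with at least 3 UMIs of leukocyte markers numbered 17 in E16 (median 2725 UMIs) and 78 in P4 (median 2855.5). Acta2 was in 3 of 17 (17.6%) and in 2 of 78 (2.56%), and Cnn1 in 0 and 1. In E16 the Myh11, Cnn1 and Mylk cells (1, 2 and 5 of 44) made up a smaller share than the 12% that 0 of 25 allows by the same limit, so they could not be told from background. The other shares in Krt14/Krt5 cells lay above those of red cells and leukocytes, whose median depth was lower.

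**Figure D3:**
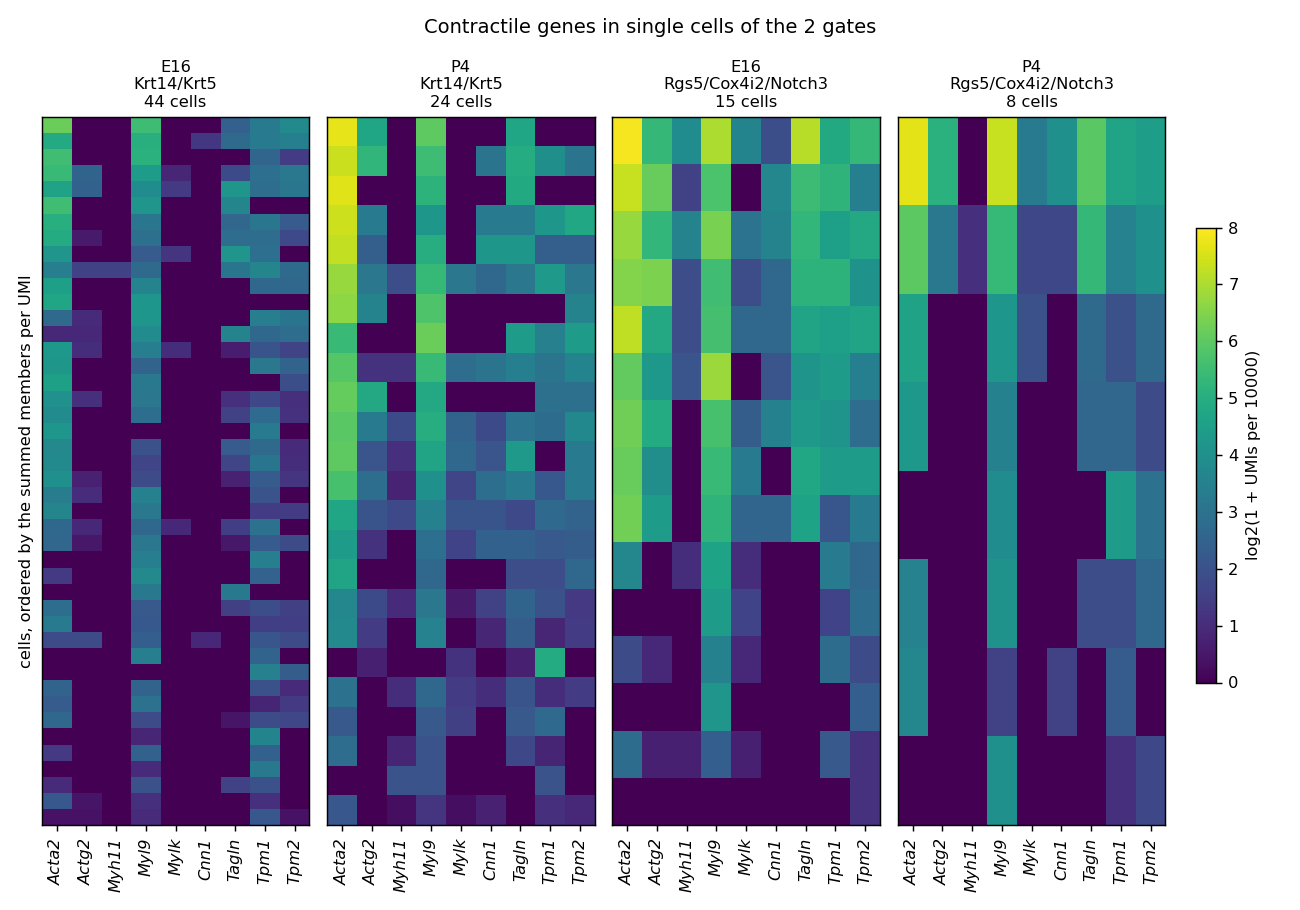
Each row is a cell and each column a contractile gene, in Krt14/Krt5 cells (44 of E16, 24 of P4) and Rgs5/Cox4i2/Notch3 cells (15 of E16, 8 of P4), with colour for log2(1 + UMIs per 10000 UMIs of the cell) and cells ordered by the summed level. The Myh11, Mylk and Cnn1 columns are nearly empty in E16 Krt14/Krt5 cells and filled in many P4 cells, and 2 P4 Rgs5/Cox4i2/Notch3 cells hold 80.0% of the UMIs of that group.

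Some Krt14/Krt5 cells had few contractile transcripts. In E16 6 of 44 had no Acta2 UMI. Of these, 2 qualified through Krt5 alone, and they held 81 and 49 UMIs of Krt18 in totals of 10788 and 12446. In P4, 2 of 24 had none. They were the cell with 140 Krt18 UMIs and a cell of 3222 UMIs with 10 Krt14 and 44 Krt18 UMIs. At the other end, the P4 cell with most Acta2 had 69 UMIs of it, with 9 Actg2, 1 Myh11, 9 Cnn1, 3 Mylk, 12 Tagln, 21 Myl9, 5 Tpm1 and 12 Tpm2, beside 25 of Epcam. The E16 cell with most had 62 Acta2 UMIs in a total of 20957, with 1 Actg2 UMI and none of Myh11, Cnn1 or Mylk. The cell that met both rules had 45 Acta2 and 69 Myl9 UMIs, 7 of Krt14, 4 of Notch3 and none of Rgs5 or Cox4i2. Counting it with the Krt14/Krt5 cells moved the Myl9 ratio from 1.42 to 1.70.

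In Rgs5/Cox4i2/Notch3 cells the stages ran the other way, on few cells. The summed levels were 14778 and 10844 CPM, a ratio of 0.734 (0.656 to 0.820). Of 9 genes 0 were at least 2-fold higher and 2 lower, where 13.6% of 2434 genes were higher and 19.2% lower. The median log2 ratio was -0.43, against -0.12 for all genes. Actg2 had 156 UMIs in E16 and 18 in P4, a ratio of 0.289 (0.167 to 0.471), and Myh11 had 18 and 1, a ratio of 0.139 (0.00334 to 0.880). Acta2 had 483 UMIs in E16 (5120 CPM) and 145 in P4 (3845 CPM), a ratio of 0.751 (0.619 to 0.906). The ratio was 0.603 (0.381 to 0.925) for Tpm1. The intervals held 1 for Cnn1 (0.741, 0.291 to 1.68), Mylk (0.652, 0.217 to 1.65), Tagln (0.924), Myl9 (0.886) and Tpm2 (0.824).

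These values rest on 2 cells at P4. One had 67 Acta2 and 11 Actg2 UMIs and the other 53 and 7, and together they held 327 of the 409 contractile UMIs (80.0%). The 6 remaining P4 cells had 8, 7, 6, 4, 0 and 0 Acta2 UMIs and no Actg2. The 15 E16 cells had 84, 80, 59, 55, 46, 40, 37, 34, 24, 11, 10, 3, 0, 0 and 0 Acta2 UMIs, and the top 2 held 30.2% of the contractile UMIs. Both stages thus held cells rich and poor in Acta2. In E16, 9 of 15 had at least 20 Acta2 UMIs, all 9 with Actg2, and in P4 2 of 8 did, both with Actg2. Without the 2 cells with most contractile UMIs in each group the Acta2 ratio was 0.259, and with at least 5 UMIs required of the 3 marker genes it was 1.83, the other way.

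Acta2 was also read beside Cox4i2, a mitochondrial oxidase subunit used as a pericyte marker. Cells with more Cox4i2 than Rgs5 UMIs numbered 5 in E16 and 4 in P4, and none had more than 24 and 8 Acta2 UMIs. Of the cells with 0 Acta2 UMIs, 2 of 3 in E16 and 2 of 2 in P4 had more Rgs5 than Cox4i2. Counts of both markers were small, at most 18 UMIs in a cell.

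The 2 kinds of cell were then compared within each library. In E16 all 9 genes were at least 2-fold higher in Rgs5/Cox4i2/Notch3 cells than in Krt14/Krt5 cells, where 16% of 6282 genes were higher and 26.8% lower, with a summed ratio of 5.10 (4.73 to 5.51). The median log2 ratio was 3.02, against -0.06 for all genes. Myh11 was 86.6-fold (13.7 to 3607), Cnn1 64.9-fold (16.3 to 563), Actg2 28.9-fold (19.0 to 45.6) and Mylk 18.4-fold (7.30 to 55.4) higher. Tagln was 8.12-fold, Myl9 4.84-fold, Acta2 4.33-fold, Tpm2 4.05-fold and Tpm1 2.48-fold higher.

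In P4 4 of 9 were at least 2-fold higher in Rgs5/Cox4i2/Notch3 cells and 1 lower, where 23% of 3583 genes were higher and 23.4% lower. The summed ratio was 1.97 (1.76 to 2.20), and the median log2 ratio 0.64, against 0.30 for all genes. Tagln was 3.35-fold (2.39 to 4.65), Myl9 3.01-fold (2.39 to 3.77), Actg2 2.14-fold (1.18 to 3.71) and Tpm2 2.13-fold (1.34 to 3.32) higher. Acta2 had a ratio of 1.55 (1.29 to 1.87) and Tpm1 of 1.42 (0.901 to 2.18). Cnn1 was at 212 CPM against 228 CPM and Mylk at 159 against 163 CPM, with ratios of 0.932 (0.383 to 1.97) and 0.975 (0.337 to 2.32). Myh11 had 1 UMI against 16, a ratio of 0.386 (0.0092 to 2.48). With cells weighted equally, the summed P4 ratio was 0.959, and without the top 2 cells of each kind it was 0.648, so which kind of P4 cell held more was not settled by these 8 cells.

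**Figure D4:**
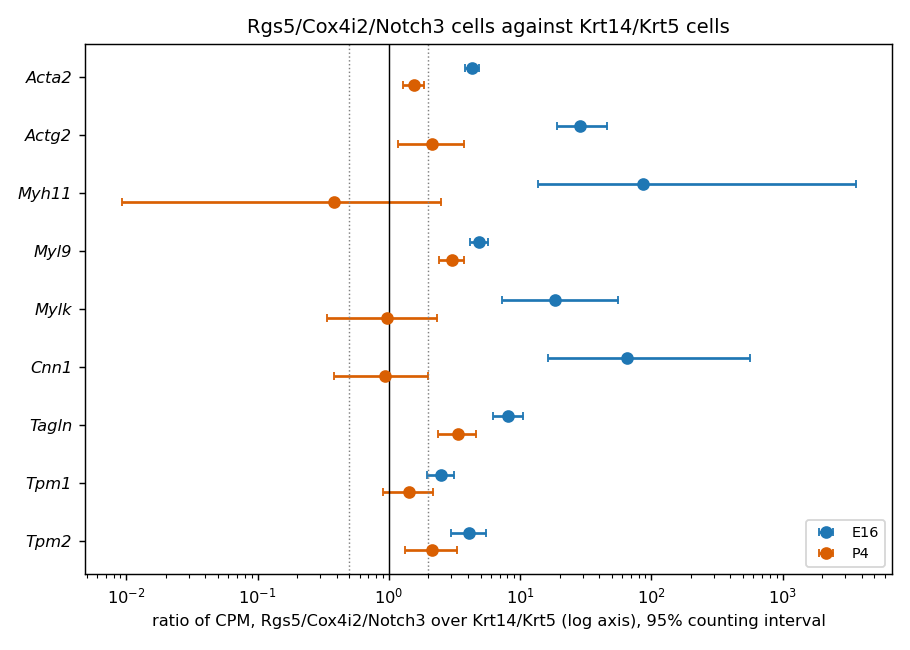
Ratio of CPM, Rgs5/Cox4i2/Notch3 cells over Krt14/Krt5 cells (log axis), of 9 contractile genes in E16 (blue) and P4 (orange), with exact 95% counting intervals; dotted lines mark 2-fold. The E16 points lie from 2.48 for Tpm1 to 86.6 for Myh11, and the P4 points lie from 0.386 for Myh11 to 3.35 for Tagln.

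Outside the 2 kinds of cell, all 9 genes had a lower summed level in P4 than in E16. The ratios ran from 0.0530 (0.00125 to 0.353) for Myh11 to 0.973 (0.860 to 1.10) for Myl9. Myh11 rested on 13 UMIs in E16 and 1 in P4, and the Myl9 interval held 1. Summed over the other cells they had 1276 and 753 CPM, a ratio of 0.590 (0.547 to 0.636), with 0 genes at least 2-fold higher and 6 lower, where 11% of 10961 genes were higher and 15% lower. In P4 all 9 genes were at least 2-fold higher in Krt14/Krt5 cells than in other cells, where 13.1% of 9761 genes were. Myl9 was lowest at 2.78-fold (2.38 to 3.22). Acta2 was at 23.3-fold (19.7 to 27.7) and Cnn1 at 29.6-fold (15.9 to 59.1). Myh11, on a single UMI in the other cells, was at 116-fold (18.0 to 4864). In E16 3 were higher (Acta2 3.55-fold, Tagln 2.74-fold and Tpm1 2.13-fold), where 16.7% of 9660 genes were. Another 3 were lower, where 19.4% of genes were. The 3 were Myh11 (0.197, 0.00464 to 1.31), Cnn1 (0.256, 0.0291 to 1.06) and Mylk (0.366, 0.127 to 0.866). The intervals of Myh11 and Cnn1 held 1. Their UMIs in the other E16 cells lay in only 3 and 4 of 200 cells. Rgs5/Cox4i2/Notch3 cells had 9 of 9 higher in E16, where 14.6% of 8817 genes were, and 8 of 8 in P4, where 22.4% of 9418 were.

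A few cells carried much of the signal elsewhere. In E16, 9 cells with at least 10 Acta2 UMIs held 69.1% of the other cells' Acta2, and in P4 6 such cells held 51.4%. One E16 cell had 95 Acta2, 30 Actg2 and 6 Myh11 UMIs with 25 of Col1a1 and 1 each of Rgs5 and Notch3. Another had 83 Acta2, 15 Cnn1 and 8 Actg2 UMIs with 1 of Notch3. That cell had at least 3 UMIs of the endothelial list, though none of Pecam1. Both cells had 9 of the 10 genes and fell short of 3 UMIs of Rgs5, Cox4i2 and Notch3 together. They held 14.3% and 15.8% of the other cells' contractile UMIs. In P4, the cells with 24, 18, 18 and 12 Acta2 UMIs were shallow, with totals of 2123, 935, 1002 and 1230 UMIs and at most 1 of Krt14.

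Myl9 was found in many other cells too. Among those with at least 10 UMIs of fibroblast markers it was found in 75 of 91 in E16 (82.4%, 73.0 to 89.6%) and 136 of 168 in P4 (81.0%, 74.2 to 86.6%), at 442 and 702 CPM. Acta2 was found in 29 of those 91 (31.9%) and 35 of 168 (20.8%). The leukocyte cells had Myl9 in 2 of 17 and 3 of 78. The P4 cell with most Myl9 among the other cells had 58 UMIs of it, with 44 of Col1a1 and none of Acta2. In cells with endothelial markers Mylk was found in 7 of 19 (36.8%, median depth 8331 UMIs) at E16. Those 7 included the cell with 83 Acta2 UMIs, which had 7 of Mylk. They also included cells with 24 and 79 UMIs of Col1a1, each with 3 of Mylk. At P4 Mylk was in 2 of 21 (9.52%, median depth 2928 UMIs).

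**Figure D5:**
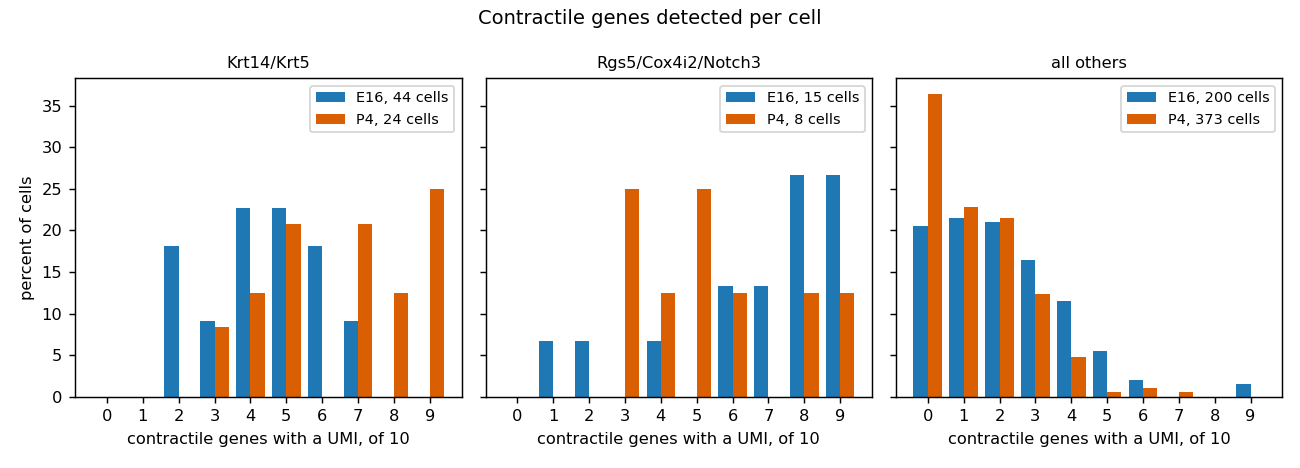
Percent of cells (vertical axis) by the number of the 10 contractile genes with a UMI (horizontal axis) in Krt14/Krt5 cells, Rgs5/Cox4i2/Notch3 cells and all other cells of E16 (blue) and P4 (orange). No E16 Krt14/Krt5 cell has more than 7 genes and 9 of 24 P4 cells have at least 8, while the other cells have a median of 2 in E16 and 1 in P4.

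Other genes of the pathway were read in the same way between stages in Krt14/Krt5 cells, where 8.86% of all genes were at least 2-fold higher and 29.2% lower. Of 18 listed genes of smooth muscle structure and the thin filament, 12 could be compared, 1 was at least 2-fold higher and 0 lower. The higher one was Pdlim3, an actinin-binding protein of the Z-disc and dense bodies, with 14 UMIs in E16 and 39 in P4, a ratio of 5.43 (2.88 to 10.8). Caldesmon (Cald1) had a ratio of 1.57 (1.16 to 2.14), Tagln2 of 1.39, and the calponin Cnn2 of 0.609. Des (desmin) had 0 UMIs in these cells at both stages. Of 14 genes of light chain control 12 were compared, with 0 higher and 1 lower, the kinase Rock2 (15 UMIs in E16, 2 in P4; 0.260, 0.0288 to 1.12). Myl6, the essential light chain, had 791 and 1246 CPM, a ratio of 1.57 (1.34 to 1.84).

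Regulators and non-muscle genes gave other patterns. Of 10 transcription genes 5 were compared, with 1 higher and 1 lower. The higher one, Mkl1, an SRF coactivator, had only 4 and 7 UMIs (3.41, 0.867 to 15.9). The lower one was Hey1, a target of Notch signalling, with 26 UMIs in E16 and 2 in P4 (0.150, 0.0172 to 0.599). Srf had 15 and 10 UMIs, and Myocd, its muscle coactivator, had 0. Of 15 genes of calcium handling and receptors only 2 reached 10 UMIs, of which the gap junction gene Gja1 was lower (19 and 4 UMIs; 0.410, 0.102 to 1.23). Of 9 genes of the non-muscle actin and myosin machinery all 9 were compared, with 0 higher and 4 lower, beside the 29.2% of all genes that were lower. Actg1, cytoplasmic gamma-actin, had 138 UMIs in E16 and 11 in P4 (0.155, 0.0758 to 0.287), Tpm3 had 147 and 19 (0.252), the myosin heavy chain Myh10 had 18 and 1 (0.108, 0.00260 to 0.686), and cofilin (Cfl1) 980 and 247 (0.491). Profilin (Pfn1) had a ratio of 1.11. Of 9 genes of striated muscle 0 reached 10 UMIs. The median log2 ratio was -0.32 for the structural list, -0.23 for light chain control, -0.10 for transcription and -0.94 for the non-muscle machinery, against -0.44 for all genes.

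The pathway lists were also compared between the 2 kinds of cell in E16, where 16% of all genes were higher in Rgs5/Cox4i2/Notch3 cells and 26.8% lower. Of the structural list 5 of 13 were higher and 0 lower, of light chain control 3 and 0 of 12, of the non-muscle machinery 2 and 0 of 9, and of transcription 3 and 2 of 5. The 2 lower ones were Srf (1 UMI against 15) and Hey1 (1 against 26). Their ratios of CPM were 0.321 (0.00762 to 2.08) and 0.185 (0.00451 to 1.13), and both intervals held 1. In P4, where 23% of all genes were higher and 23.4% lower, the counts were 5 and 1 of 10, 5 and 1 of 10, 3 and 1 of 8, and 1 and 1 of 2. The lower ones in P4 were Pdlim3 (3 UMIs against 39), Rock1 (1 against 13), Myh9 (0 against 13) and Srf (0 against 10). Their ratios of CPM were 0.475 (0.0939 to 1.49), 0.475 (0.0112 to 3.16), 0 (0 to 2.03) and 0 (0 to 2.75). Every one of these intervals held 1. In E16, Ppp1r14a, an inhibitor of myosin phosphatase, had 33 UMIs in Rgs5/Cox4i2/Notch3 cells and 5 in Krt14/Krt5 cells, a ratio of 31.7 (12.3 to 104). Tns1, a focal adhesion protein, had 36 UMIs against 0, and Mef2c, a muscle transcription factor, 23 against 2 (55.3, 13.7 to 484). Tpm4 was higher in the same cells, 3.87-fold in E16 and 9.84-fold in P4, as were thymosin Tmsb4x, 6.10-fold and 3.69-fold, and calponin Cnn3, 3.06-fold and 5.14-fold. Between stages in Rgs5/Cox4i2/Notch3 cells the P4 level was 2-fold or more above E16 for 13.6% of all genes and below it for 19.2%. There 1 structural gene of 11 was higher and 1 lower, with 0 and 2 of 12 in light chain control and 0 and 1 of 7 in the non-muscle machinery. Ppp1r14a (0.152, 0.0176 to 0.593) and Tns1 (0.208, 0.0411 to 0.660) were lower in P4. The actinin Actn1 was 2.71-fold higher (1.14 to 6.50). Rock1 (0.208, 0.00488 to 1.41) and Actg1 (0.326, 0.0627 to 1.08) were also 2-fold or more lower, but these intervals held 1.

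Genes outside the contractile list were ranked by how closely they followed it from cell to cell, by Pearson's r of log counts with the members' mean, which is a description since cells of a library share depth and free RNA. Over all cells (259 in E16, 406 in P4; 8579 genes) the closest was Id4, a helix-loop-helix inhibitor, with r of 0.67 and 0.54, followed by Tinagl1 (0.44 and 0.53) and Cnn2 (0.55 and 0.43). Nexn, an actin-binding protein, had 0.58 and 0.34. Within Krt14/Krt5 cells (44 and 24; 5566 genes) the closest were Mtss1, an actin regulator (0.54 and 0.54), Myl6 (0.53 and 0.68) and Cdkn1c, a cell cycle inhibitor (0.53 and 0.78). Mtss1 had a UMI in only 5 of the 24 P4 cells. Lgals7 also ranked among the closest (0.50 and 0.49), and its level was 456 CPM in E16 Krt14/Krt5 cells against 10.6 CPM in Rgs5/Cox4i2/Notch3 cells.

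The genes furthest apart between the 2 kinds of cell were ranked without the 10. Highest in Rgs5/Cox4i2/Notch3 cells at both stages were Igfbp7 (3011 CPM against 22.0 in E16), Ndufa4l2, Id3, Lgals1 and Ebf1, and the matrix genes Col3a1, Col1a1 and Dcn. Highest in Krt14/Krt5 cells were Krt18, Krt8, Wfdc18, Barx2, Spint2, Epcam and Cited4. Krt14 was among them too and helped to choose those cells.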

How the data were processed

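The deposited values are raw UMI counts, 1 whole number for each gene in each barcode, and the authors applied no scaling. The submitters' processing notes name Cell Ranger and the mm10 build without further settings. The sources used here do not give the annotation, the barcode selection or the number of animals pooled. The title of the series speaks of 10x Genomics, and the labels' protocol of Drop-seq.

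Barcodes with at least 200 detected genes were kept, and UMIs were summed over cells of each kind and library. Poisson, Clopper-Pearson and conditional ratio intervals are exact, at 95%, and cover counting error only. Ratios were called by size, at 2-fold, with at least 10 UMIs. Shares of cells with a UMI were also computed after thinning to 1466 UMIs. The members, gene lists and rules were chosen with earlier results of these data known. All 10 genes are named, with up to 3 genes of each pathway list in each direction by the interval bound nearest 1, and the 8 genes most like the members or furthest apart between kinds of cell. Some genes that this rule names are not reported here. Coordinates came from GENCODE M21. Scrublet in scanpy 1.11.5 called 1 E16 and 0 P4 doublets, none among the Krt14/Krt5 or Rgs5/Cox4i2/Notch3 cells, and called cells were kept. Python 3.11.15, numpy 2.4.6, scipy 1.17.1, pandas 2.3.3 and matplotlib 3.10.9 were used, and the ratio script was tested on simulated data.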

Additional observations from a re-analysis of the deposited data

Results flagged for a closer look

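Acta2, Actg2 and Myh11 differed between stages in opposite directions in the 2 kinds of cell. The ratio of P4 over E16 was 2.09 for Acta2, 3.90 for Actg2 and 31.2 for Myh11 in Krt14/Krt5 cells, and 0.751, 0.289 and 0.139 in Rgs5/Cox4i2/Notch3 cells. The intervals of each pair did not overlap, but they cover counting error only, and with 1 library per stage the difference between the kinds of cell was not tested. The P4 values of Rgs5/Cox4i2/Notch3 cells came mostly from 2 of 8 cells.

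Barcodes below 200 detected genes, 178 in E16 and 281 in P4, were outside every comparison and held 25 and 47 UMIs of the contractile genes, at 47.8 CPM (30.9 to 70.6) and 63.8 CPM (46.9 to 84.8). Haemoglobin made up 500421 of their 523094 UMIs in E16 and 702678 of 736800 in P4. Per UMI other than haemoglobin, these barcodes held the contractile genes at 1103 CPM (E16) and, for P4, at 1377 CPM.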

How the results depend on the processing

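Across 15 alternatives, 176 of 246 summary values and 374 of 462 single-gene values stayed close to those given, 66 and 78 moved, and 4 and 10 reversed. In Krt14/Krt5 cells Actg2, Myh11, Cnn1 and Mylk were at least 2-fold higher in P4 under every alternative that gave a ratio (13 for Actg2, 12 for the others, which had 0 UMIs in thinned E16 cells), and Acta2 and Tagln under 10 of 13. Leaving the 20 most abundant genes out of the totals shifted every log2 ratio of P4 over E16 there by 0.21. The cause of the other changes was not tested. No paired analysis was possible because each stage had 1 library, and leaving out a replicate could not be run for the same reason.

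Counts of genes higher or lower under the alternatives, here and further on, are of the contractile genes only. The share of all genes called was not computed under these alternatives, so the counts cannot be set against it. With 500 detected genes the summed level of other E16 cells was 1492 CPM. With 1 keratin UMI the summed ratio of P4 over E16 in Krt14/Krt5 cells was 1.57, the ratio between kinds of cell 5.63 in E16 and 2.76 in P4 with 0 lower, the P4 share with 5 genes 55.3%, and other P4 cells had 703 CPM. With 5 keratin UMIs these ratios were 1.62 and, in E16, 4.51, the E16 share was 73.1%, and other cells had 1375 and 998 CPM. With an epithelial UMI required the stage ratio was 1.76 and other P4 cells had 824 CPM.

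With 2 mural UMIs the stage ratio in Rgs5/Cox4i2/Notch3 cells was 0.496 with 6 genes lower. The ratio between kinds of cell was then 3.61 in E16 and 0.936 in P4, reversed, with 0 higher and 3 lower, Acta2 at 0.699 and Actg2 at 0.942, and other E16 cells had 1084 CPM. With 5 mural UMIs the stage ratio was 1.56, reversed, with 1 higher and 1 lower, Acta2 at 1.83 and Tpm1 at 1.01. The ratio between kinds was 3.16 in E16 and 2.52 in P4 with 0 lower, and other E16 cells had 1899 CPM. Counting the cell of both kinds in both gave 1.74 between kinds in P4, with 2 higher.

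Without the 20 most abundant genes the stage ratio in Krt14/Krt5 cells was 2.20, the P4 ratio between kinds 1.65 with 2 higher, and other cells had 1622 and 933 CPM. With cells weighted equally the stage ratios were 3.55 and 0.581, and the ratios between kinds 5.87 in E16 and 0.959 in P4, reversed, with 0 higher, Acta2 at 0.638 and Actg2 at 0.825. Other cells had 1563 and 1020 CPM.

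Without the top cell the stage ratio in Rgs5/Cox4i2/Notch3 cells was 0.534 with 5 lower, the ratios between kinds 4.61 and 1.32 with 1 higher and 2 lower in P4, Acta2 at 0.978, reversed, and other E16 cells had 1079 CPM. Without the top 2, an alternative chosen after seeing the data, these were 0.279 with 9 lower, 4.32, and 0.648, reversed, with 0 higher and 5 lower, Acta2 at 0.451, Actg2 at 0 and Tagln at 0.519, all reversed, and other cells had 901 and 698 CPM.

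Thinned, 1 gene was at least 2-fold higher in Krt14/Krt5 cells, since few members then reached 10 UMIs. The stage ratio in Rgs5/Cox4i2/Notch3 cells was 0.516 with 5 lower, the ratios between kinds were 5.71 and 1.55 with 2 higher and 0 lower, the shares with 5 genes 10.0% and 29.4%, and other cells had 1397 and 836 CPM. With 30 UMIs required, 1 gene was lower between stages in Rgs5/Cox4i2/Notch3 cells and 0 between kinds in P4. Depth limits the stage ratios of Myh11 and Cnn1 in Krt14/Krt5 cells, which rest on 1 and 2 E16 UMIs.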
